A study of Mus musculus with 2 samples.

Results

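Differentiating muscle cells of the rib callus 4 days after injury were taken as the cells with at least 2 unique molecular identifiers (UMIs, counted single transcripts) of Myog, among cells with 200 or more detected genes, under 10% of UMIs on the 13 mitochondrial genes, and no UMI of the blood cell gene Ptprc or the endothelial gene Pecam1. This rule found 208 cells in the control library and 392 in the Smo cKO library, 600 of the 21259 cells deposited. The mice of both libraries were 8 to 12 weeks old and carried a tamoxifen-inducible Cre driven by Sox9 (Sox9:CreER) and the Cre reporter R26:tdT. Control animals had 1 floxed Smo allele (Smof/+) and Smo cKO animals had 2 (Smof/f), so that the controls also carried Cre, the reporter and a floxed allele. All received 3 tamoxifen injections from day −7 to day −5 and a 3 mm rib resection. Dissection aimed to take the callus and little of the muscle beside it. Calluses of 3 animals per genotype were pooled into 1 library, which allows no test between genotypes, and genotype cannot be told apart from library, pooled animals or how much muscle each dissection carried over. Intervals below are 95% intervals and cover counting error only.

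Skeletal muscle is repaired by satellite cells, which carry Pax7 and Myf5, start to divide after injury, and then turn on Myod1 and Myog. Myog encodes myogenin, a basic helix-loop-helix factor that binds E-boxes and drives the last steps of differentiation. Myogenin-positive cells leave the cell cycle, with Cdkn1c and Cdkn1a as cyclin-dependent kinase inhibitors, fuse through the membrane proteins encoded by Mymk and Mymx, and build the sarcomere. Newly made fibers first use developmental and cardiac or slow isoforms of the contractile proteins, such as Myh3, Tnnt2, Tnni1 and Actc1, and later the adult skeletal ones. Smo encodes the transmembrane protein that carries the Hedgehog signal into the cell.

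On GRCm38, Myog is at chr1:134289989-134292548, Acta1, the skeletal muscle alpha-actin gene, at chr8:123891769-123894751 on the minus strand, and Mylpf, the gene of a fast regulatory myosin light chain, at chr7:127208890-127214298. Upstream sequence of these 3 genes is shown because the chosen factor reads E-boxes and because Mylpf and Acta1 varied most between the cells. The sequences are from RefSeq (GRCm38.p6), 5′ to 3′ on the strand of the gene, and end just before the start site or, for Myog, just before the first annotated exon. The Mylpf start in RefSeq lies inside the gene span given by GENCODE. The sequences cover chr1:134289754-134289988, chr8:123894776-123895025 and chr7:127211358-127211607. Capitals mark E-boxes (CANNTG) and, in Acta1, 1 CArG box, the site read by serum response factor. Another E-box of Myog, CAGTTG, lies 12 to 7 bases before the RefSeq start, within 15 bases left out here because GENCODE places them in the first exon.
Myog: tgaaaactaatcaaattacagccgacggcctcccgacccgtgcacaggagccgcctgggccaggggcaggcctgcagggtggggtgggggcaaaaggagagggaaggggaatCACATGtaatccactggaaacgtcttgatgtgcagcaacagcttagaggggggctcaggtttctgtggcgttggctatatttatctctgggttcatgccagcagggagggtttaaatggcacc
Acta1: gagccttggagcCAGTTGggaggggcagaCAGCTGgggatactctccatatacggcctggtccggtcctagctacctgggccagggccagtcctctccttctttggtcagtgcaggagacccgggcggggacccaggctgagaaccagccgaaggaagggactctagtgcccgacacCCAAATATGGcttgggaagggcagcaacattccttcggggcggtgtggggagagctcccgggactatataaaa
Mylpf: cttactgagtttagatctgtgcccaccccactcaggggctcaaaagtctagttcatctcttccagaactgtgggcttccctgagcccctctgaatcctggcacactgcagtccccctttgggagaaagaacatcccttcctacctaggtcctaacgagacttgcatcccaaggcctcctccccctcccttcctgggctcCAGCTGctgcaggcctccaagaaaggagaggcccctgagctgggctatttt

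Of the 56 thick filament, thin filament and Z-disc genes listed, 44 had a RefSeq promoter, and the 250 bases before the start were searched on both strands. An E-box was present in 38 of the 44 (86.4%), against 69.3% of the 27025 genes with a promoter. The E-box CAGCTG, which is 1 form of CANNTG, was present in 17 (38.6%) against 14.7%, the MEF2 site in 10 (22.7%) against 3.42%, and the CArG box in 7 (15.9%) against 1.62%. In other muscle lists an E-box was present in 4 of 10 myogenic regulators (40%), 4 of 9 fusion and adhesion genes (44.4%), 7 of 9 calcium handling genes (77.8%) and all 7 acetylcholine receptor and synapse genes (100%). A gene with several promoters counted where any of them held the motif. These are matches of letters and not measured binding.

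Some cells of the rule need care. The libraries have 613 barcodes in common, which 23 control and 57 Smo cKO cells chosen here carried. In 6 of these barcodes both copies passed the rule. Their control copies held 556 to 1611 UMIs with 2 to 8 of Myog, and their Smo cKO copies 6405 to 51205 UMIs with 60 to 288 of Myog. Leaving out every barcode in common kept 185 and 335 cells, and values without them are given for the main counts. Transcripts of connective tissue were also present. Over 1% of UMIs were on 7 connective markers (Col1a1, Col1a2, Col3a1, Dcn, Lum, Pdgfra and Postn) in 83 control cells (39.9%) and 159 Smo cKO cells (40.6%). These cells held a median of 25389 and 28312 UMIs, against 9734 and 10536 in the other 125 and 233 cells. Whether they are pairs of cells in 1 droplet was not resolved, as Scrublet, a doublet caller, called only 1 cell in each library. They are called connective-rich below, and values without them are given for the main results.

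Summed over the chosen cells, the markers of differentiating muscle were present, but not each cell held them. No UMI of Acta1 was found in 40.4% of control and 41.8% of Smo cKO cells. In control and Smo cKO cells, Acta1 was at 2393 and 1180 UMIs per 1000000 UMIs (CPM), Mylpf at 1752 and 839, Tnnt2, the cardiac troponin T gene also used by embryonic muscle, at 825 and 706, and Cdkn1c at 1554 and 1971. Cells with 2 or more UMIs of the connective gene Pdgfra and none of Myog, Pax7, Myf5 or Myod1 held 8.45 and 10.3 CPM of Acta1 and 2.53 and 4.43 CPM of Tnnt2. Cells with 2 or more UMIs of Ptprc and none of Myog, 366 and 486 cells used as a measure of free RNA, held 11.999 and 11.2 CPM of Acta1 and 2.90 and 4.99 CPM of Tnnt2. The condition on Myog was added after seeing that 11 and 38 of the 377 and 524 Ptprc cells held it, 1 of them with 21 UMIs, and the other values in Ptprc cells below are without this condition. Markers of other cell types were present at different levels. The 6 endothelial markers summed to 4.88 and 6.56 CPM, with no UMI of Tek or Emcn in the control library. The 7 macrophage markers, with Lyz2 as the most abundant, summed to 141 and 157 CPM, against 5487 and 8321 CPM in the Ptprc cells. The connective markers summed to 17129 and 16434 CPM, against 34854 and 30892 CPM in the Pdgfra cells and 9238 and 7308 CPM in the Ptprc cells. These sums were uneven over the Ptprc cells, where the median share per cell was 0.186% and 0.154% of UMIs and the highest 6.45% and 5.68%. The median was 0.162% and 0.150% in the chosen cells that were not connective-rich. The 5 erythroid markers summed to 511 and 1676 CPM, and to 962 and 2055 CPM without connective-rich cells.

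Compared with early myogenic cells, defined as 77 control and 123 Smo cKO cells with no Myog and at least 2 UMIs of Pax7 and Myf5 together, the Myog-positive cells held the fusion and contractile genes. As the groups were chosen on Myog, Pax7 and Myf5, this is a description. Myomaker, Mymk, stood at 283 and 223 CPM in Myog-positive cells and at 1.56 and 2.28 CPM in early cells, and Mymx at 290 and 259 CPM against 7.04 and 4.56. The cardiac actin gene Actc1 was at 1058 and 1139 CPM against 3.13 and 16.5, the embryonic myosin Myh3 at 396 and 174 CPM against 3.13 and 9.12, and Mybph, which encodes a myosin-binding protein, at 102 and 63.9 CPM against 0.782 and 0.570. Among genes lower in the Myog-positive cells were Heyl, a Notch target, with 10.3 and 31.5 CPM against 64.9 and 120, and Igfbp5, an insulin-like growth factor binding protein, with 108 and 133 CPM against 331 and 719. Basement membrane collagen genes followed, with Col4a1 at 27.4 and 28.5 CPM against 88.3 and 67.8.

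Shares of cells were compared after each cell was thinned to 5000 UMIs, which kept 188 of 208 control and 376 of 392 Smo cKO cells. Chrna1, a subunit of the acetylcholine receptor, was found in 69.1% (62.02 to 75.7) of control and 67.0% (62.02 to 71.8) of Smo cKO cells, and Mymk in 53.7% (46.3 to 61.0) and 43.4% (38.3 to 48.5). Pax7 was found in 4.79% (2.21 to 8.89) and 5.59% (3.49 to 8.41) of Myog-positive cells, against 47.9% and 43.9% of early cells, which were chosen with it. Myod1 was found in 35.1% (28.3 to 42.4) and 39.4% (34.4 to 44.5), against 4.11% and 10.3% of early cells. In Ptprc cells, whose median depth before thinning was 4374 and 4409 UMIs against 15523.5 and 15159 in Myog-positive cells, Mymk was found in 0.595% and 0.877%, and Mylpf in 7.74% and 7.02%. Acta1 was found in 4.17% and 6.14% of Ptprc cells and in 4.40% and 5.19% of connective cells, against 49.5% and 40.7% of Myog-positive cells.

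**Figure D1:**
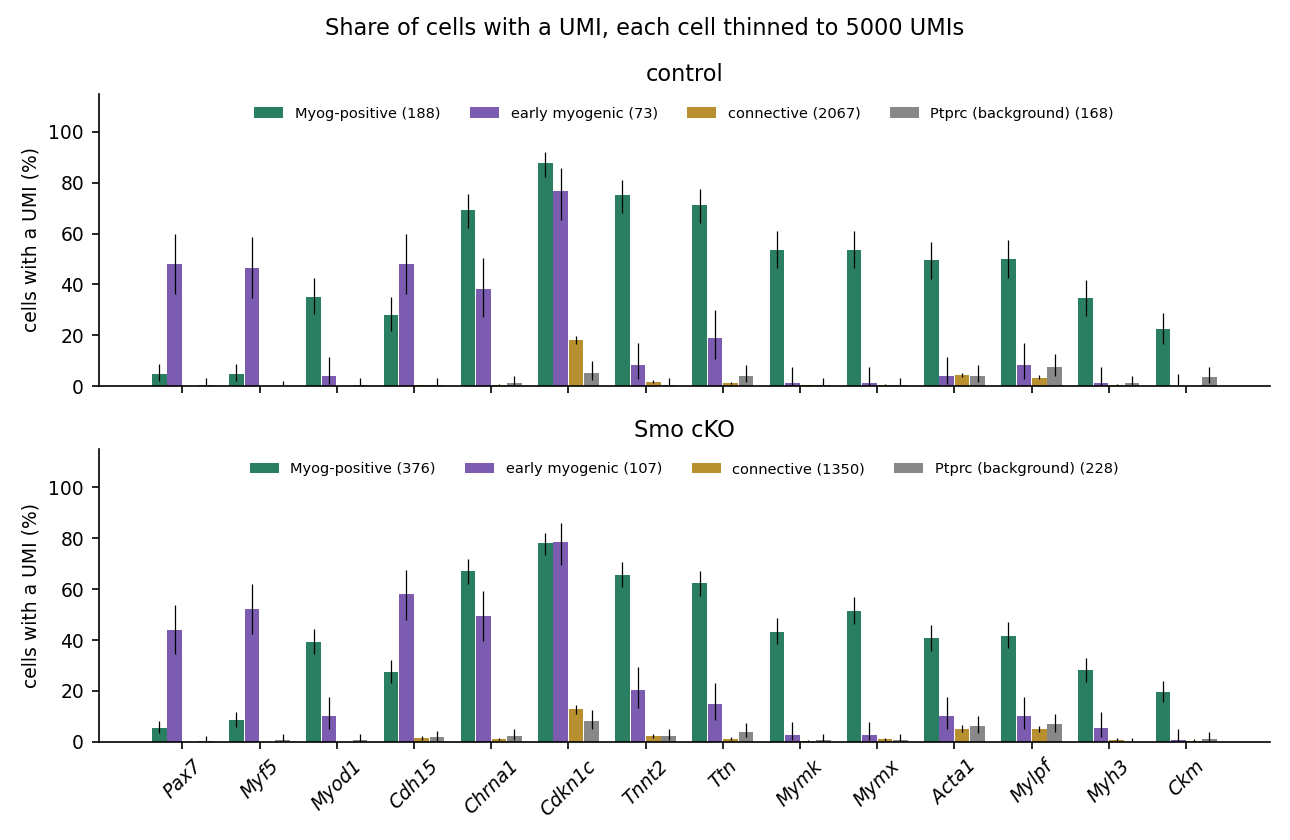
Bars give the percent of cells with at least 1 UMI of each gene after thinning to 5000 UMIs, with exact 95% intervals, for control (top) and Smo cKO (bottom); the number of cells of each kind is in the legend. Pax7 and Myf5 stand highest in the early myogenic cells that were chosen with them, and Mymk, Mymx, Acta1, Mylpf and Myh3 in the Myog-positive cells (Mymk 53.7% and 43.4%).

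Cells close to the threshold of 2 UMIs were poor in muscle transcripts. With exactly 1 Myog UMI, just outside the rule, 5.20% of 327 control and 7.03% of 797 Smo cKO cells had a UMI of Mymk or Mymx, and 87.2% and 78.5% were connective-rich. With exactly 2 UMIs, just inside, 27.3% of 22 and 7.46% of 67 cells had Mymk or Mymx, and 68.2% and 79.1% were connective-rich. At 3 UMIs, Mymk or Mymx was found in 60.0% of 15 and 33.3% of 18 cells. Above 50 UMIs of Myog, Mymk or Mymx was present in each of the 19 control and in 98.9% of 93 Smo cKO cells. Connective-rich cells there made up 21.1% and 15.1%. The name of differentiating muscle therefore holds for the cells rich in Myog, whereas the cells at 2 UMIs lay nearer to those at 1 UMI, above all in the Smo cKO library. The median level of the contractile genes, the sum of the thick filament, thin filament and Z-disc lists, went from 2373 and 2220 CPM at 2 Myog UMIs to 22423 and 24254 CPM above 50. As Myog was counted from the same cells, this is a description.

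**Figure D2:**
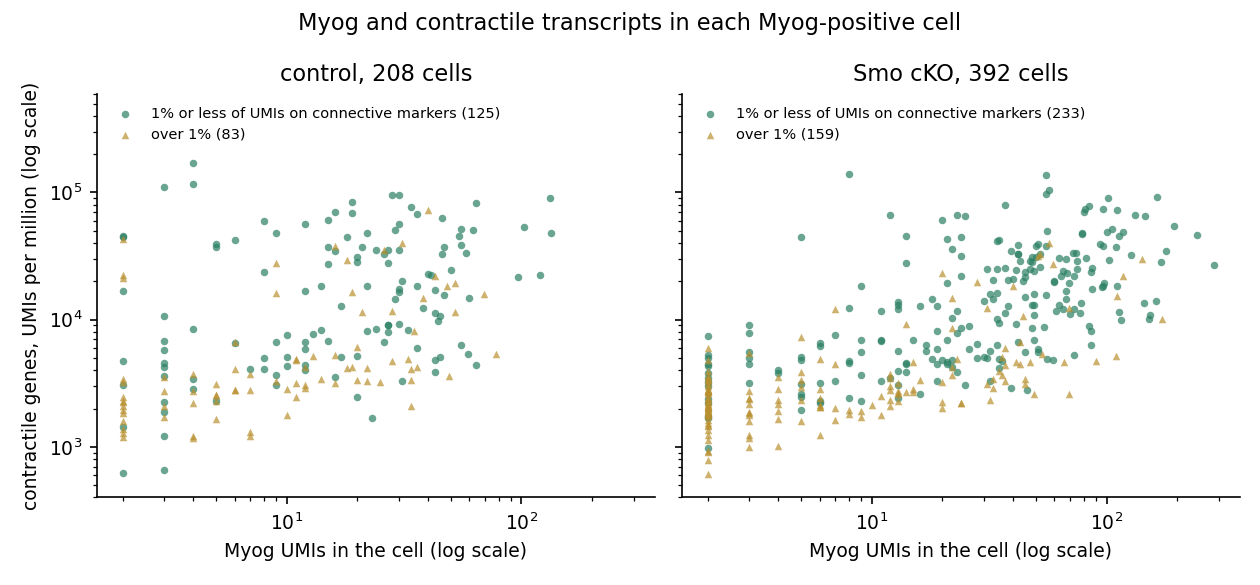
Each point is a Myog-positive cell, by its Myog UMIs (log scale) and its CPM on the contractile lists (log scale); green circles have 1% or less of their UMIs on 7 connective markers and gold triangles have more. Connective-rich cells (83 of 208 control, 159 of 392 Smo cKO) crowd at low Myog and low contractile levels, and contractile levels up to 171745 CPM are found in the others.

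Contractile genes were spread very unevenly over the cells. Acta1 ranged from 0 to 752 UMIs per control cell and from 0 to 707 per Smo cKO cell, each with a median of 1, and 40.4% and 41.8% of cells had none. The 10% of cells richest in Acta1, 21 and 40 cells, held 69.9% and 72.9% of its UMIs. For Mylpf these shares were 71.6% and 76.1%, and for Myh3 69.0% and 76.5%. Myog, of which each cell had 2 UMIs or more by the rule and which can therefore not be compared in evenness, ranged from 2 to 134 UMIs (median 15.5) in control and from 2 to 288 (median 21) in Smo cKO cells. More even than Acta1 were Cdkn1c, with 0 to 170 (median 19) and 0 to 431 (median 21.5) UMIs and 31.9% and 44.2% of them in the richest 10%, and Chrna1, with 34.8% and 36.1%. At 5000 UMIs per cell, the variance over the mean was largest for Mylpf (41.7 in control and 35.1 in Smo cKO) and Acta1 (45.5 and 33.4), ranked by the lower library, against a median of 1.08 over 2017 genes. The collagen genes Col1a1 (28.3 and 29.0), Col1a2 and Col3a1 came next and are among the markers that define the connective-rich cells.

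Some cells had UMIs of both fusion and cell division genes. In the cells that were not connective-rich, thinned to 5000 UMIs, a UMI of the proliferation genes Top2a or Mki67 was found in 12.4% (6.33 to 21.04) of the 89 control cells with Mymk or Mymx and in 36.8% (16.3 to 61.6) of the 19 cells without them. In Smo cKO cells these shares were 12.2% (7.72 to 18.1) of 172 and 31.9% (19.1 to 47.1) of 47. Over all Myog-positive cells they were 18.0% of 128 and 28.3% of 60 in control and 14.3% of 217 and 40.3% of 159 in Smo cKO cells, and the differences were not tested. Among the cells that were not connective-rich, those with Acta1 or Mylpf held the fusion genes in 97.2% of 71 control and 91.0% of 144 Smo cKO cells. Those without Acta1 or Mylpf held them in 54.1% of 37 and 54.7% of 75 cells. Top2a alone was found in 18.1% of control and 21.8% of Smo cKO cells among all Myog-positive cells at 5000 UMIs, and in 18.8% and 22.0% of connective cells. Free RNA adds to such joint shares, and its part was not tested.

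The cells of each library were then put in order by the share of their UMIs on the contractile lists and cut into tertiles, which are ranges of a score and not cell types. Over all cells this order also followed connective transcripts, as 70.0% of control and 79.4% of Smo cKO cells of the lowest tertile were connective-rich, against 17.4% and 10.0% of the highest. It was therefore remade in the 125 and 233 cells that were not, a choice made after seeing the data. Median depth in these tertiles was 10819, 7598 and 12409 UMIs in control and 11501.5, 9023.5 and 10775 in Smo cKO cells, from the lowest to the highest. The tertiles were cut in each library alone and are not matched between libraries. The middle one spanned contractile levels of 6780 to 32846 CPM in control and 6401 to 21999 CPM in Smo cKO cells. The highest began at 33039 and 22179 CPM.

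At the low end stood genes of progenitors and dividing cells. Pax7 went from 48.5 to 0 and 1.77 CPM from the lowest to the highest control tertile, and from 34.3 to 13.5 and 0.985 CPM in Smo cKO cells. Heyl went from 31.8 to 5.24 CPM and no UMI, and from 74.7 to 15.8 and 3.94 CPM. Top2a, the topoisomerase of dividing cells, went from 199 to 15.7 and 10.6 CPM and from 160 to 48.4 and 13.8 CPM. The 16 genes of G2 and M phase summed to 937, 165 and 63.9 CPM in control and 999, 361 and 82.8 CPM in Smo cKO cells. Pclaf, which binds the replication clamp, Stmn1, a tubulin-binding protein, Dut and Ube2c, and the imprinted gene Mest, with 658, 217 and 58.5 CPM in control cells, were among the 10 genes leaning most to the low end in both libraries. Mgp, Spp1 and Cav1 were there as well.

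Regulators of differentiation had different courses along the order, which is not a measure of time. Myod1 was present in the lowest tertile and varied by less than 2-fold along the order, with 117, 175 and 202 CPM in control and 181, 257 and 282 CPM in Smo cKO cells. Myog was highest in the middle control tertile (1116, 3350 and 2350.5 CPM) and in the highest Smo cKO tertile (1184, 4323 and 5434 CPM). Cdkn1c followed the same course, with 1782, 3303 and 2553 CPM against 1785, 4471 and 5677 CPM. Mef2c, a partner of the myogenic factors, leaned to the high end, with 10.0, 155 and 1047 CPM in control and 14.6, 158 and 705 CPM in Smo cKO cells. Hes6, a basic helix-loop-helix gene, reached 463 and 718 CPM in the highest tertile from 107 and 144 CPM in the lowest.

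The fusion, calcium handling and energy lists were each higher toward the high end in sum, with different courses among their genes. Cdh15, a cadherin of satellite cells, went the other way, at 141, 91.7 and 55.0 CPM and 149, 90.03 and 64.0 CPM. Mymk was at 77.0, 443 and 988 CPM in control and 37.8, 364 and 979 CPM in Smo cKO cells, and Mymx at 142, 644 and 844 CPM and 129, 481 and 989 CPM. Chrna1 stood at 350 and 360 CPM in the lowest tertile and at 630 and 691 CPM in the highest. The calcium handling gene Jsrp1 had a course like that of the fusion genes, at 100.4, 306 and 429 CPM and 135, 321 and 504 CPM. The 10 genes leaning most to the high end were low in the lowest tertile. Ckm, the muscle creatine kinase, had no UMI there and reached 60.2 and 745 CPM in control and 39.4 and 429 CPM in Smo cKO cells. Sarcolipin (Sln), the small inhibitor of the sarcoplasmic calcium pump, went from 8.37 to 44.5 and 894 CPM in control and from 1.72 to 48.4 and 275 CPM in Smo cKO cells. Casq2, the calcium-binding calsequestrin, Mb, myoglobin, Cox6a2 of the respiratory chain and Cav3, the caveolin of muscle, leaned the same way. Along this order the lists that did not define it went from 853 to 3649 CPM (fusion), 507 to 1068 CPM (acetylcholine receptor and synapse), 390 to 3922 CPM (calcium handling) and 218 to 2586 CPM (creatine and fiber metabolism) in control cells. In Smo cKO cells the same lists went from 742 to 3293, 530 to 1135, 422 to 2532 and 268 to 1816 CPM.

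**Figure D3:**
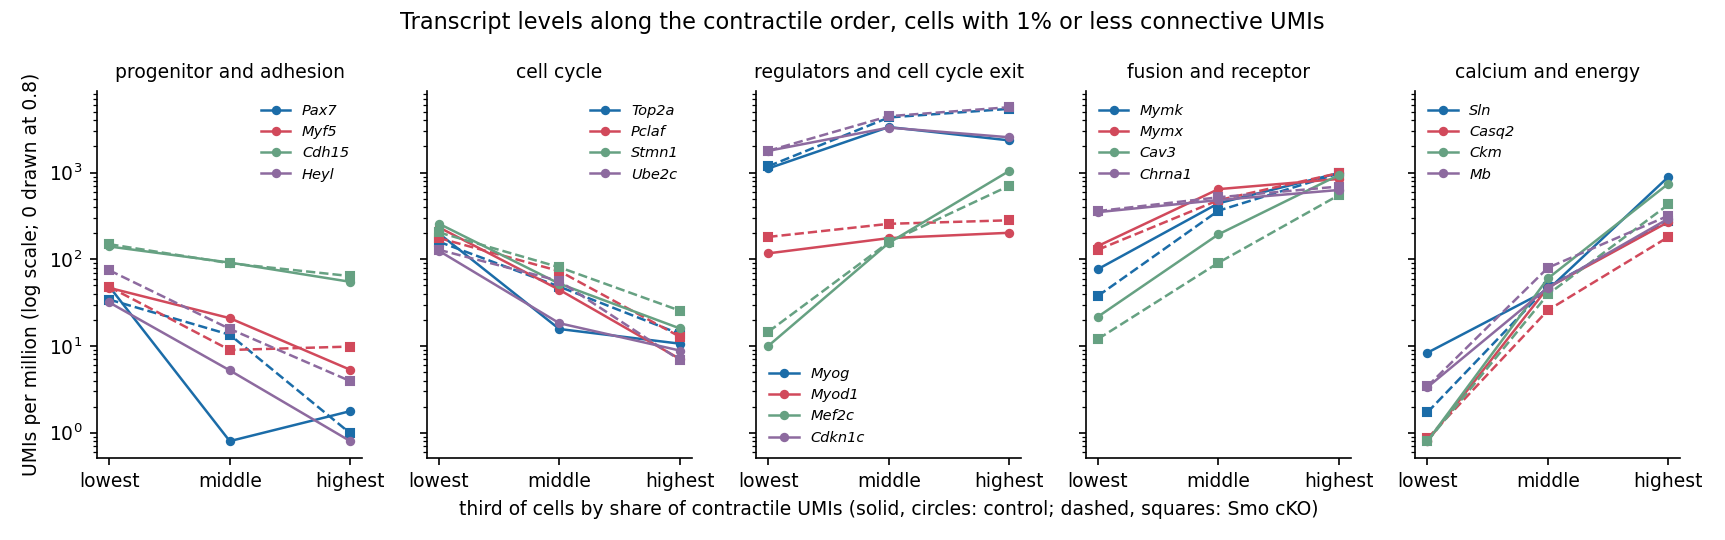
Levels in CPM (log scale, 0 drawn at 0.8) in the lowest, middle and highest tertile of contractile share, for cells that were not connective-rich; solid lines with circles are control (42, 42 and 41 cells) and dashed lines with squares Smo cKO (78, 78 and 77 cells). Progenitor and cell cycle genes descend, Mymk and Mymx climb, and Mef2c, Ckm and Sln are highest at the end in both libraries.

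The Smo cKO library held a larger share of Myog-positive cells. They made up 2.07% (1.80 to 2.37) of 10057 cells past the gene and mitochondrial limits in the control and 4.12% (3.73 to 4.54) of 9507 in the Smo cKO library. Without Ptprc or Pecam1 cells in the denominator the shares were 2.44% (2.12 to 2.79) and 5.05% (4.57 to 5.56). Without connective-rich cells they were 1.24% and 2.45%, and without barcodes found in both libraries 1.96% and 3.76%. Exactly 2 UMIs were held by 22 control and 67 Smo cKO cells. With at most 2000 genes per cell, 46 and 57 Myog-positive cells were left, 1.09% and 1.48% of cells.

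In the Myog-positive cells the thick filament, thin filament and Z-disc lists had negative median log2 ratios of Smo cKO over control, at −1.005, −0.47 and −0.75. Not all of their genes were lower, and Actc1 was at 1058 and 1139 CPM. Cdkn1c was not lower, and Chrna1 was about equal. In 1 or both libraries 2512 genes reached 50 CPM, and 20 of them were at least 2-fold higher in the Smo cKO cells (0.796%) and 16 at least 2-fold lower (0.637%), with a median log2 ratio of 0.08. Among cells that were not connective-rich these were 19 (0.815%) and 22 (0.943%) of 2332 genes, and without barcodes found in both libraries 22 and 17 of 2505. The ratios are shares of UMIs within the Myog-positive cells. Summed over them, Acta1 UMIs were 8834 in 208 control and 8995 in 392 Smo cKO cells. Cells with no UMI of Myog, Ptprc or Pecam1 did not have the same ratios. There Acta1 was at 9.75 and 21.3 CPM and the troponin C gene Tnnc2 at 2.82 and 5.96 CPM, while Pgam2 was at 1.03 and 1.02 CPM and Mustn1 at 23.2 and 19.2 CPM. All values are those of 1 library per genotype. A gene could pass the 50 CPM limit through the library where it was high, so the limit itself favors 2-fold differences.

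Thick filament genes had the lowest median ratio of the muscle lists. Of 6 that reached 50 CPM, 3 were at least 2-fold lower and none was higher, with a median log2 ratio of −1.005 against 0.08 over all genes. Among them, Myh8 reached 50 CPM in the control library only, so count and median rest in part on the limit. Without connective-rich cells 3 of 10 were 2-fold lower with a median of −0.86, and without barcodes in common the median was −0.83. Mylpf was at 1752 and 839 CPM (log2 ratio −1.06, interval −1.11 to −1.01), Myh3 at 396 and 174 CPM (−1.19, −1.30 to −1.08) and the perinatal myosin Myh8 at 77.5 and 19.4 CPM (−2.00, −2.29 to −1.71). The essential light chain Myl1 was at 814 and 534 CPM (−0.61, −0.68 to −0.54). In the Ptprc cells without Myog, Mylpf was at 13.7 and 17.5 CPM (33 and 56 UMIs) and Myh3 at 1.24 and 1.87 CPM (3 and 6 UMIs). In all Ptprc cells Mylpf was at 35.1 and 18.7 CPM and Myh3 at 10.8 and 1.62 CPM. The part of free RNA in the ratios was not tested.

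Thin filament genes differed by isoform. Of 15 genes, 4 were at least 2-fold lower and none 2-fold higher, with a median log2 ratio of −0.47. Without connective-rich cells 2 of 16 were 2-fold lower, with a median of −0.35. Skeletal actin, Acta1, was lower (log2 ratio −1.02, −1.06 to −0.98), while cardiac actin, Actc1, was not (1058 and 1139 CPM, 0.11, 0.05 to 0.16). Fast troponin I, Tnni2, was at 269 and 109 CPM (−1.30, −1.44 to −1.17), and slow troponin I, Tnni1, at 511 and 453 CPM (−0.17, −0.25 to −0.09). Fast troponin T, Tnnt3, was at 462 and 244 CPM (−0.92, −1.02 to −0.83), and Tnnt2 at 825 and 706 CPM (−0.23, −0.29 to −0.16). Both troponin C genes were lower, Tnnc2 of fast fibers at 419 and 130 CPM (−1.69, −1.81 to −1.57) and Tnnc1 of slow and cardiac muscle at 349 and 174 CPM (−1.01, −1.12 to −0.90). Without connective-rich cells Acta1 was at −0.90, Actc1 at 0.34, Tnni2 at −1.23, Tnni1 at 0.02, Tnnt2 at −0.06 and Tnnc2 at −1.58. In the cells with at most 2000 genes Acta1 was at −0.31 and Mylpf at −0.10.

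Some Z-disc, calcium and energy genes also had low ratios. In the Z-disc, M-band and titin list 2 of 10 genes were at least 2-fold lower (median log2 ratio −0.75), the actinin Actn2 at 50.4 and 19.9 CPM and Myoz2, a binder of calcineurin, at 51.2 and 22.0 CPM. Both reached 50 CPM in the control library only, so this count rests in part on the limit. Titin itself, Ttn, was at 835 and 553 CPM (−0.60). Among calcium handling genes 2 of 8, Sln and Casq2, were 2-fold lower (median −0.60). Sln was at 181 and 45.2 CPM (−2.00, −2.19 to −1.81), the lowest ratio of the 2406 genes ranked after some gene classes were set aside, closely followed by Myh8. Jsrp1 of the junctional membrane was at 164 and 155 CPM (−0.07, −0.22 to 0.07). Of 5 energy genes 1 was 2-fold lower, the glycolytic Pgam2 at 62.6 and 22.8 CPM, and the median was −0.78. Pgam2 also reached 50 CPM in the control library only. Mustn1, a gene of the musculoskeletal system, was at 148 and 51.5 CPM, the integrin ligand Npnt at 55.8 and 20.3 CPM, and the secretin gene Sct at 85.1 and 33.2 CPM. Npnt and Sct likewise reached that limit in the control library only. Without connective-rich cells 3 of 12 Z-disc genes (median −0.63), 1 of 11 calcium handling genes (−0.49) and 1 of 6 energy genes (−0.67) were 2-fold lower. The lowest ratio there was that of the adult fast myosin Myh1 (−2.44), followed by Mustn1 (−1.90), Myh8 (−1.72) and Sln (−1.69). Of these, Myh1 and Myh8 reached 50 CPM in the control library only.

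Fusion, receptor and regulator lists had median ratios closer to 0. None of the 8 fusion and adhesion genes that reached 50 CPM differed 2-fold (median −0.28), and 1 of 9 was 2-fold lower without connective-rich cells (median −0.25). As only 0.796% of all genes were 2-fold higher and 0.637% lower, a count of none in a short list says little. Mymk was at 283 and 223 CPM (−0.35, −0.46 to −0.24), Mymx at 290 and 259 CPM (−0.16, −0.27 to −0.05) and Cav3 at 209 and 108 CPM (−0.95, −1.10 to −0.81). Chrna1 was at 288 and 287 CPM (0.00, −0.11 to 0.10). Of 10 regulators none differed 2-fold (median 0.04). Myod1 was at 104 and 130 CPM (0.32, 0.15 to 0.50), Mef2c at 246 and 144 CPM (−0.78, −0.90 to −0.65), and Id3, an inhibitor of the myogenic factors, at 246 and 412 CPM (0.74, 0.64 to 0.85). Id3 was higher in the Smo cKO connective cells as well, with 276 and 527 CPM. Myog, which chose the cells, was at 1247 and 1778 CPM and is given without comparison. Cdkn1c was at 1554 and 1971 CPM (0.34, 0.30 to 0.39), and at 2440 and 3850 CPM without connective-rich cells (0.66). Gadd45g, a growth arrest gene, was at 83.4 and 161 CPM (0.95), with like values of 81.7 and 162 CPM in connective cells. The 16 genes of G2 and M phase summed to 491 and 740 CPM, and to 427 and 511 CPM without connective-rich cells.

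**Figure D4:**
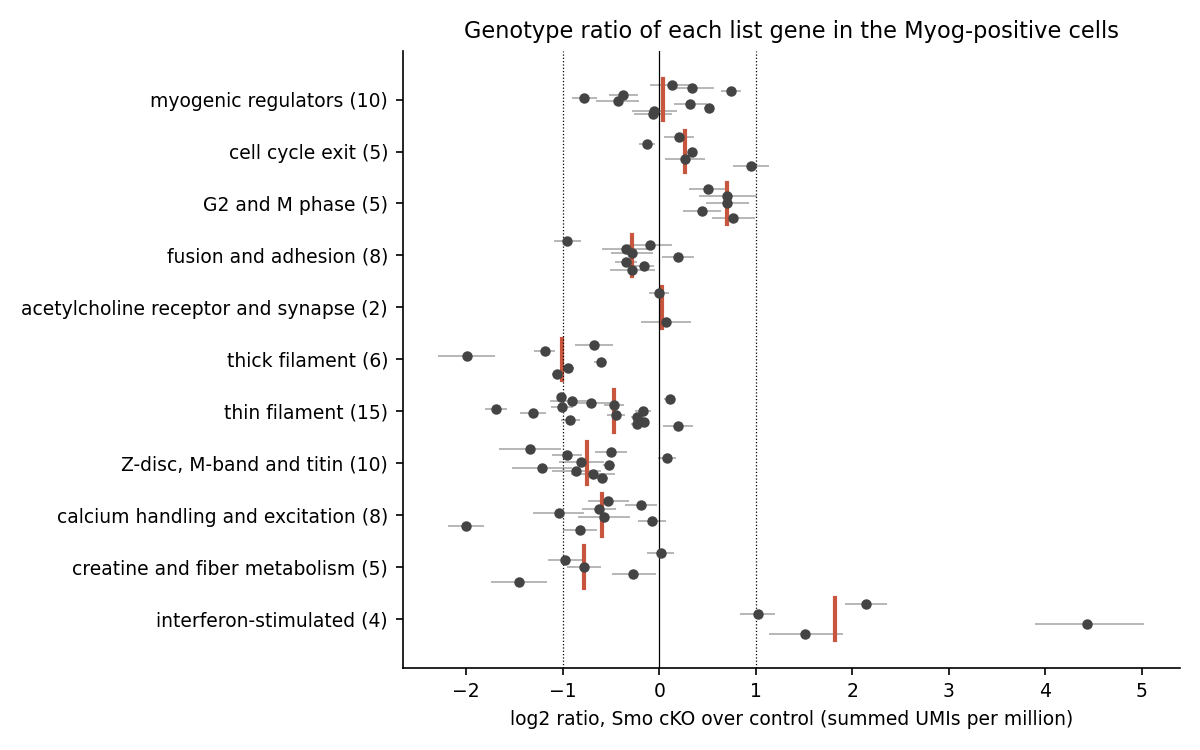
Each point is a list gene at 50 CPM or more in at least 1 library, by its log2 ratio of Smo cKO over control in the Myog-positive cells with its 95% counting interval; red bars are list medians, dotted lines mark 2-fold, and the number of genes stands beside each list. Thick filament genes center on −1.005, receptor and regulator genes near 0 (0.03 and 0.04), and the 4 interferon-stimulated genes on 1.82.

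Levels were also set side by side at like counts of Myog, as a description, since Myog chose the cells and depth was not matched. Median depth was 14782 and 19901 UMIs at 6 to 10 UMIs of Myog, 16961 and 21512 at 11 to 20, 15406 and 11689 at 21 to 50, and 14359 and 11690 above 50, so that equal counts were not equal levels of Myog. With 6 to 10 UMIs of Myog, in 27 control and 33 Smo cKO cells, Acta1 was at 794 and 145 CPM and Mymk at 129 and 22.7 CPM. With 11 to 20 UMIs, in 43 and 55 cells, Acta1 was at 2432 and 888 CPM and Mymk at 229 and 68.9 CPM. With 21 to 50 UMIs, in 64 and 104 cells, Acta1 was at 3269 and 1103 CPM and Mymk at 383 and 244 CPM. Above 50 UMIs, in 19 and 93 cells, the libraries were closer, with Acta1 at 3875 and 3533 CPM and Mymk at 835 and 704 CPM. The median contractile level per cell showed the same course, at 4127 and 2847, 6079 and 3911, 14690 and 9761, and 22423 and 24254 CPM in these ranges. Connective-rich cells made up 48.1% and 48.5%, 41.9% and 41.8%, 29.7% and 26.9%, and 21.1% and 15.1% of them. As 10% of cells hold most Acta1 UMIs, its values rest on few cells, and with each cell weighted equally Acta1 was at a log2 ratio of −0.80 and Mylpf at −0.73.

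Interferon-stimulated genes had high ratios, in connective and Ptprc cells as well as in muscle. Isg15 had the highest of the 2512 genes and was followed by Rpl29, a ribosomal gene outside the rule for named genes and chosen after its values were seen, at 168 and 1073 CPM (log2 ratio 2.67). All 4 that reached 50 CPM were at least 2-fold higher in the Smo cKO Myog-positive cells. Isg15 and Psmb8 reached it in the Smo cKO library only, so this count rests in part on the limit, and the other listed genes were below it. Isg15, a ubiquitin-like modifier, was at 7.58 and 164 CPM (log2 ratio 4.43, 3.89 to 5.03), and Bst2, the antiviral membrane protein tetherin, at 53.6 and 236 CPM (2.14, 1.93 to 2.36). The difference was present in connective cells, where Isg15 was at 13.3 and 129 CPM, in early myogenic cells at 15.6 and 230 CPM, and in Ptprc cells at 27.5 and 203 CPM. Bst2 was at 44.9 and 233 CPM in connective cells (2.38) and at 207 and 401 CPM in Ptprc cells (0.95), and Psmb8, a subunit of the immunoproteasome, at 18.1 and 51.7 CPM in Myog-positive cells (1.51) and at 153 and 224 CPM in Ptprc cells (0.55). Cxcl10, a chemokine gene, had a log2 ratio of 1.30 in Myog-positive and 1.96 in Ptprc cells, and Ifi27l2a of 2.09 and 2.22, so that no common order between cell types was seen, and the differences between cell types were not tested. Cxcl10 in Myog-positive cells was below 2-fold once connective-rich cells were left out, at 22.0 and 33.6 CPM (0.61, 0.04 to 1.21). Without connective-rich cells 3 of 3 listed interferon genes were 2-fold higher (median 2.34), of which Isg15 and Bst2 reached 50 CPM in the Smo cKO library only. B2m, the light chain of class I molecules, was at 267 and 671 CPM in Myog-positive and 364 and 840 CPM in connective cells. The erythroid markers, of which Hbb-bs was the most abundant, were uneven over the order, at 189, 3319 and 186 CPM in control tertiles and 4584, 519 and 499 CPM in Smo cKO tertiles, and in connective cells they were at 1216 and 1045 CPM. Bone and cartilage transcripts were at 73.1 and 106 CPM, with Acan as the most abundant. Mmp13, a collagenase, was at 21.7 and 52.1 CPM over all cells and at 6.48 and 6.52 CPM without connective-rich cells.

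Transcripts of the recombined gene and of the reporter were sparse in these cells. Smo was at 20.04 and 9.44 CPM, 74 and 72 UMIs (log2 ratio −1.09, −1.57 to −0.60), and at 16.2 and 3.91 CPM without connective-rich cells (−2.05, −3.18 to −1.004). It was at 18.5 and 13.2 CPM in connective cells and 5.58 and 1.35 CPM in Ptprc cells. After thinning to 5000 UMIs the shares of Myog-positive cells with a Smo UMI, 6.38% (3.34 to 10.9) and 3.99% (2.25 to 6.49), had overlapping intervals. The floxed exon is not given in the sources used here, so UMIs of Smo need not measure its deletion. TdTomato was found in 2 control (0.962%) and 12 Smo cKO (3.06%) Myog-positive cells, and in 0.845% and 2.18% of connective cells. The reporter could not be used to tell cells of the Sox9 lineage. Ptch1, the Hedgehog receptor gene, was at 10.3 and 9.18 CPM (−0.17, −0.75 to 0.44), so that no difference was detectable at this depth, and Gas1, a coreceptor gene, at 69.9 and 58.4 CPM (−0.26, −0.48 to −0.03).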

How the data were processed

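Calluses of 3 animals per genotype were dissociated, depleted of dead cells and run on the 10x Chromium platform. According to the submitters' processing notes, reads were processed with Cell Ranger 3.0.2 and mm10. The deposited values are raw UMI counts per gene and barcode for 31054 features, with no normalization by the authors. The control library held 10747 barcodes with 105367110 UMIs (median 7743) and the Smo cKO library 10512 barcodes with 112700220 UMIs (median 7702.5). The cells, gene lists and comparisons were chosen with earlier results of these data known.

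Cells were chosen as stated in the results, with no upper gene limit. UMIs were summed over cells and divided by their total to give CPM, with exact intervals for the ratio of 2 Poisson counts and exact Clopper-Pearson intervals for shares. There was no test and no p-value, as each genotype is 1 library. Named genes were the markers, the listed genes and the 10 highest and 10 lowest ratios from 50 CPM up; sex-specific, mitochondrial and ribosomal genes and those of hemoglobin and immunoglobulins were set aside. For the order they were the 10 genes leaning most to each end, and for early cells the 15 highest and 10 lowest. Of the listed genes, 2 were not matched to 1 row of the feature list. Doublets were not removed: Scrublet (scanpy 1.11.5) scored 10380 and 9960 cells and called 1 in each library, too few for the caller to have worked. The calculation of the ratios and intervals was checked on simulated Poisson counts with known changes. As the intervals assume such counts, this check says nothing about spread between cells or animals. Gene positions are from GENCODE vM21 (GRCm38). Python 3.11.15, numpy 2.4.6, scipy 1.17.1 and pandas 2.3.3 were used.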

Additional observations from a re-analysis of the deposited data

How the results depend on the processing

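Of 133 alternative values, 82 stayed close to the main ones and 51 moved. The share of Myog-positive cells was 5.32% and 12.5% (control and Smo cKO) at 1 or more Myog UMIs, 3.42% in Smo cKO at 3 or more, 1.09% and 1.48% with at most 2000 genes per cell, and 1.24% and 2.45% without connective-rich cells. Genes 2-fold higher and lower numbered 200 and 80 with at most 2000 genes, where only 46 and 57 cells were left, 48 and 35 at a minimum of 20 CPM, and 8 and 6 at 200 CPM, and 10 were lower with cells weighted equally. With equal weights the list medians (log2) were −0.73 for thick filament, −0.29 for thin filament, −0.54 for Z-disc and 0.42 for G2 and M phase. At 3 or more Myog UMIs they were −0.83 (thick) and −0.29 (thin). Without connective-rich cells they were −0.86 (thick), −0.35 (thin), 0.33 (G2 and M) and 2.34 (interferon), without barcodes in common −0.83 (thick), and without the 8% of cells with the highest Scrublet scores 2.28 (interferon). In tertiles of all Myog-positive cells, the lowest gave −0.69 (thin), −0.21 (Z-disc), −0.043 (calcium) and −0.28 (receptor), the middle −1.51 (thick), −0.36 (Z-disc), −0.23 (calcium), 0.31 (receptor) and 1.01 (G2 and M), and the highest 3.09 (interferon). Depth set the shares of cells with a UMI. In control and Smo cKO cells these were 65.4% and 52.8% for Mymk, 58.7% and 57.9% for Myod1, 46.2% and 33.9% for Myh3 and 21.2% and 26.5% for Mki67 without thinning. At 2000 UMIs they were 34.8% and 31.9% for Mymk, 17.4% and 22.5% for Myod1, 18.9% for Myh3 in Smo cKO, and 3.48% and 3.89% for Mki67. The cause of these moves was not tested. Leaving out Scrublet doublets was not run as an alternative, since 1 cell was called in each library. The alternatives without connective-rich cells, shared barcodes or high Scrublet scores were chosen after seeing the data. No paired analysis was possible because each genotype has 1 library.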
